A study of Mus musculus with 16 samples.

Results

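Mouse formative stem cells kept in A3XR medium were compared with epiblast stem cells kept in AFX medium, and the difference is described here for genes on the 19 autosomes, to show which functions separate these cultures. The 9 libraries compared, of 16 in the series, were chosen by their labels alone. The formative group (FS) held 6 libraries from 2 lines, 5ar1 at passages 10, 12 and 14 and 5ar3 at passages 4, 5 and 12. The epiblast group (EpiSC_AFX) held 3 libraries from 1 line, AFX6, at passages 5, 8 and 12. A label gave each library its cell type and medium; strain, sex and derivation of the lines are not given in the sources used here. All libraries came from total RNA of bulk cultures made with a directional kit. Replicates were therefore passages of a line. The p-values measure the spread between libraries of a group, which in FS also holds the difference between the 2 lines. The medium cannot be told apart from the line in EpiSC_AFX. The other 7 libraries, embryonic stem cells in 2iL (E14IV-C) and epiblast stem cells in AF medium (AF32), entered the model to estimate the spread.

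Formative cells stand between the naive pluripotency of embryonic stem cells and the primed pluripotency of epiblast stem cells, and they are known to respond directly to both germ cell and somatic cues. As background, AFX medium supplies activin A and Fgf2 with XAV939, a tankyrase inhibitor that stabilises Axin and holds down canonical Wnt signalling. A3XR supplies a lower dose of activin A, XAV939 and an inverse agonist of retinoic acid receptors, without added Fgf2. Activin and Nodal bind the same type I and type II receptors, which phosphorylate Smad2 and Smad3. These join Smad4 and DNA-binding partners such as Foxh1 and switch on Nodal itself, its co-receptor Tdgf1 and its secreted inhibitors Lefty1 and Lefty2. In the epiblast before gastrulation this loop holds back neural differentiation, and stronger signalling drives mesendoderm.

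Total counts per library ran from 22069338 to 33290250. Mitochondrial reads took 11.9 to 27.9% of counts in FS and 18.1 to 29.4% in EpiSC_AFX. Levels are given in CPM, the count scaled to the size of its library after TMM, and within a line they are listed in order of passage. Of the genes tested, 686 lay on chromosome X, with 51 called, and 16 on chromosome Y, with 6 called, all 6 higher in FS. These 2 chromosomes were set aside, as were 26 mitochondrial genes and 59 genes with no chromosome assigned. Of the mitochondrial genes 7 were called, all 7 lower in FS (median -0.57 on the log2 scale). With mitochondrial genes left out of the fit, an alternative added after seeing the data, 869 autosomal genes were called, against 863 with them. The pluripotency genes that both labels imply were present. Pou5f1, the central pluripotency factor, measured 345 to 1279 CPM in the FS libraries (median 654) and 856, 805 and 676 CPM in AFX6, with overlapping groups. Otx2, a factor of the formative and primed epiblast, measured 133 to 215 CPM in the FS libraries (median 177) and 96.4, 96.6 and 117 CPM in AFX6, without overlap. Neither was called (-0.11, adjusted p = 0.911 and 0.76, adjusted p = 0.0743), and none of the 10 core pluripotency genes was, Sox2 (0.71, adjusted p = 0.108) and Nanog (-0.50, adjusted p = 0.173) among them. Fgf5 and Pou3f1, markers of the post-implantation epiblast, differed by -0.05 and -0.58 and were not called. Pou5f1 and Fgf5 changed sign with the scaling used (0.023 and 0.096 with scaling by total counts).

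Of 17768 autosomal genes tested with edgeR's quasi-likelihood test, 863 were called at an adjusted p under 0.05 (Benjamini-Hochberg over all genes tested), which is 4.86% of them. FS was higher for 500 (2.81%) and lower for 363 (2.04%). The median log2 fold change, FS minus EpiSC_AFX, was 0.04 over all of them. Among the called genes, 418 higher and 247 lower ones changed by at least 1 on the log2 scale, and the median absolute change was 1.85 for the higher and 1.52 for the lower set. The 6 FS and 3 EpiSC_AFX values did not overlap for 449 of the higher and 318 of the lower genes, against 1730 of all genes tested (9.74%). Counts of list members given below are to be read beside these shares of all genes, 4.86% called and 9.74% without overlap. Scaling by total counts gave 488 higher and 186 lower genes, so that 72.4% of calls were higher against 57.9%, and it moved the median of all genes to 0.16. Of the 863 calls, 240 (144 higher, 96 lower) held whichever of the 9 libraries was left out. Without AFX6 p8, p5 or p12 the number of calls was 355, 447 or 505.

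**Figure D1:**
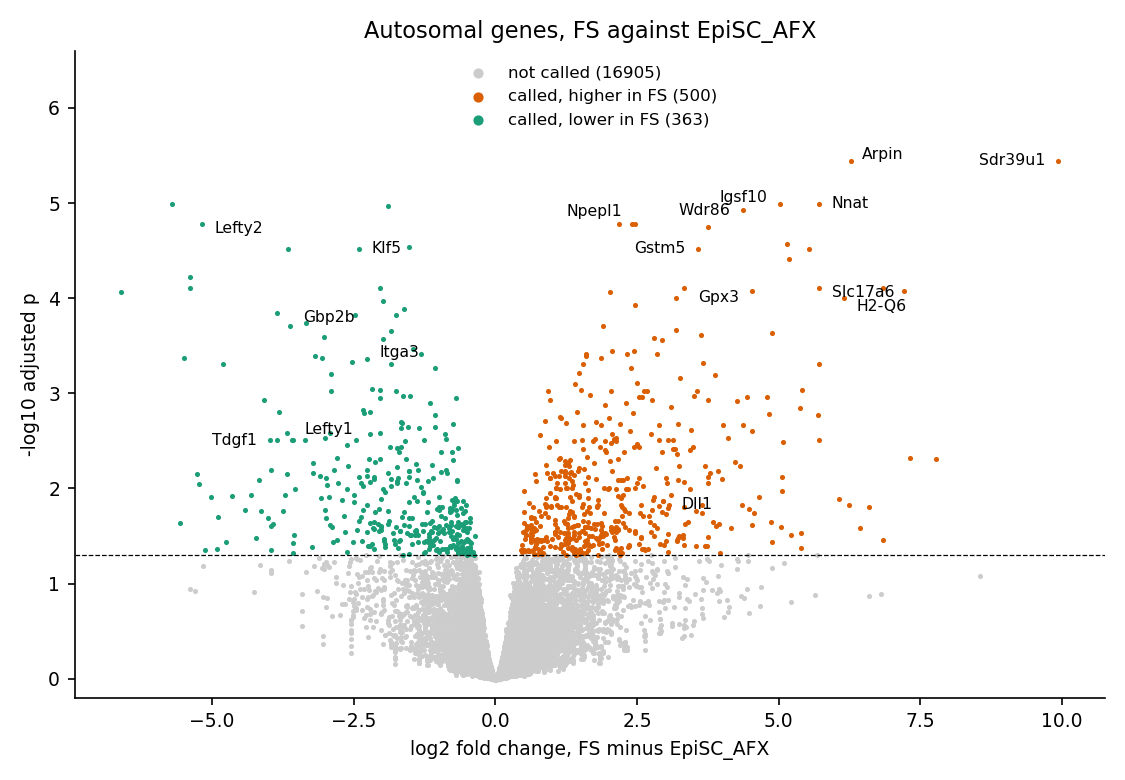
Each point is 1 of the 17768 autosomal genes tested. The horizontal axis is the log2 fold change, FS minus EpiSC_AFX, and the vertical axis is -log10 of the adjusted p, with a dashed line at the threshold of 0.05. The 500 genes higher and the 363 genes lower in FS lie above that line, with Lefty2 among the lower ones and Arpin and Nnat among the higher ones.

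Nodal, its co-receptor Tdgf1 and both Lefty genes were lower in FS. Of 11 tested ligands, receptors and convertases (13 listed, Acvr1c too low to test and Gdf1 not matched to a row of the count table) 3 fell and none rose, and of 13 transducers, targets and inhibitors 4 fell and none rose. Medians were 0.03 and -0.36, and most members of both lists were not called. Nodal, the ligand, measured 7.45, 9.21 and 21.3 CPM in 5ar1, 0.811, 1.7 and 6.2 CPM in 5ar3 and 36.5, 35.9 and 33.5 CPM in AFX6. Every AFX6 library was above every FS library, and 5ar3 p4 and p5 were lowest (log2 fold change -2.17 ± 0.57 (SE), adjusted p = 0.038, edgeR). The estimate was -1.48 for 5ar1 and -3.59 for 5ar3, and the lines themselves differed (adjusted p = 0.0274). With each library left out in turn, the Nodal call ended without 5ar1 p10 or p12, 5ar3 p12 or any AFX6 library (adjusted p = 0.0507 to 0.109). Tdgf1, the membrane co-receptor of Nodal also called Cripto, measured 24.1, 10.2 and 23.9 CPM in 5ar1, 0.626, 0.989 and 15.2 CPM in 5ar3 and 230.0, 171 and 193 CPM in AFX6. The highest FS library had 24.1 CPM and the lowest AFX6 library 171, so the groups lay far apart (log2 fold change -3.98 ± 0.69 (SE), adjusted p = 0.0031). The row of its processed pseudogene, Tdgf1-ps1, moved likewise (-3.68, adjusted p = 0.0026), and reads of the 2 cannot be separated with certainty.

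Both Lefty genes, secreted antagonists that Nodal induces, fell as well, Lefty2 further than Tdgf1. Lefty1 measured 6.08, 13.8 and 23.1 CPM in 5ar1, 1.33, 2.5 and 15.8 CPM in 5ar3 and 139, 60.6 and 181 CPM in AFX6 (log2 fold change -3.60 ± 0.62 (SE), adjusted p = 0.00312). Lefty2 measured 0.371, 0.574 and 0.914 CPM in 5ar1, 0.258, 0.0471 and 2.28 CPM in 5ar3 and 34.6, 13 and 34.8 CPM in AFX6 (log2 fold change -5.18 ± 0.50 (SE), adjusted p = 1.66e-05), the lowest adjusted p among the members of both lists. FS and AFX6 did not overlap for either gene, and the calls of Lefty1, Lefty2 and Tdgf1 held whichever library was left out. Skil, a Smad corepressor induced by the pathway, measured 109.5 to 195 CPM in the FS libraries (median 166) and 296, 256 and 251 CPM in AFX6 (log2 fold change -0.78 ± 0.18 (SE), adjusted p = 0.0171). Its call ended without AFX6 p5 or p8 (adjusted p = 0.056 to 0.0958). Smad7, an inhibitory Smad, measured 4.38 to 36.7 CPM in the FS libraries (median 19) and 55.6, 39.9 and 41.7 CPM in AFX6 without overlap but was not called (-1.33, adjusted p = 0.0851). Genes of the machinery that passes the signal were not called. Smad2, Smad3, Smad4 and Foxh1 differed by 0.14, 0.63, 0.14 and 0.08, and the receptors Acvr1b, Acvr2a and Acvr2b by 0.32, 0.11 and 0.42.

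**Figure D2:**
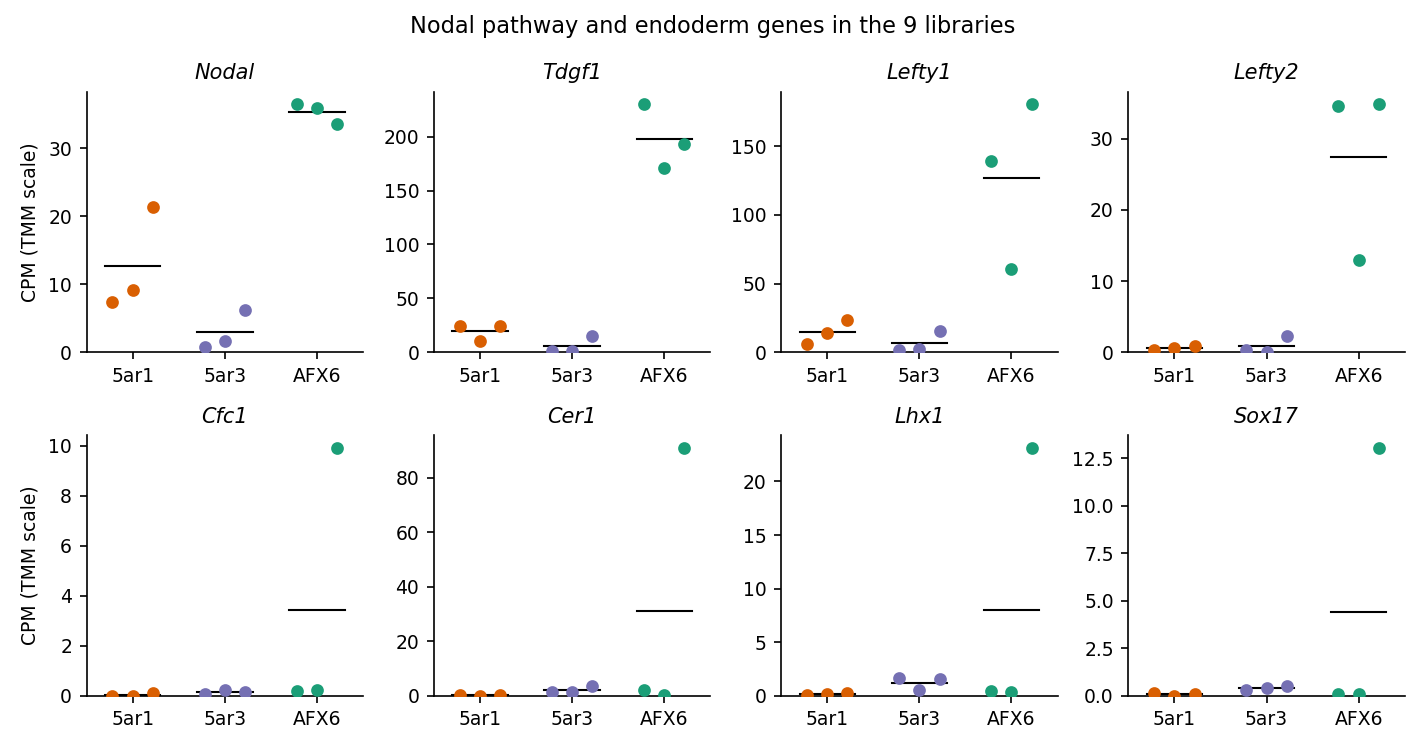
Each point is 1 library, in order of passage within a line, on a linear axis of CPM (TMM scale), and the bar is the mean of a line. Nodal, Tdgf1, Lefty1 and Lefty2 are higher in all 3 AFX6 libraries than in all 6 FS libraries, while Cfc1, Cer1, Lhx1 and Sox17 are high in AFX6 p12 alone.

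Mesendoderm genes formed a second set that rested largely on 1 library. Of 15 tested streak and mesoderm genes (19 listed) 4 fell, of 13 tested endoderm genes (14 listed) 2 fell, and none rose; medians were -1.09 and -2.17. Cer1, a secreted Nodal, Wnt and BMP antagonist of anterior endoderm, measured 2, 0.407 and 91 CPM in AFX6 and at most 3.39 CPM in FS (log2 fold change -4.89 ± 1.13 (SE), adjusted p = 0.02). Without AFX6 p12 its adjusted p was 0.959. Sox17, an endoderm master regulator, measured 0.0714, 0.102 and 13.1 CPM in AFX6 and 0 to 0.495 CPM in FS (log2 fold change -4.22 ± 1.08 (SE), adjusted p = 0.0331). Lhx1, an anterior streak factor, had 0.464, 0.339 and 23.1 CPM and Hnf4a, a factor of gut and visceral endoderm, had 0, 0 and 2.43 CPM in AFX6. Without AFX6 p12 none of the 3 was called, and the AFX6 libraries left held no more than 3 counts each of Sox17 and none of Hnf4a, too few for a fold. Cfc1, a co-receptor of the same family as Tdgf1, measured 0.179, 0.237 and 9.92 CPM in AFX6 (-5.23, adjusted p = 0.00906) and had an adjusted p of 0.532 without AFX6 p12. Lgr5, a Wnt target, measured 0.893, 0.203 and 7.99 CPM (-2.63, adjusted p = 0.0469) and differed by -0.16 without that library. Uncalled members had the same library on top: Gata4 measured 0.179, 0.169 and 4.92, Gata6 0.214, 0.0678 and 6.75 and T 3.96, 0.644 and 13 CPM in AFX6. In a bulk culture more cells of a type and more RNA per cell cannot be told apart. The endoderm and streak calls also ended without several FS libraries. Sox17 was lost without any 5ar1 library, 5ar3 p4 or AFX6 p12 (adjusted p = 0.0531 to 0.56), Lhx1 without any 5ar1 library, any 5ar3 library or AFX6 p12 (adjusted p = 0.0509 to 0.764) and Hnf4a without any 5ar1 library, any 5ar3 library or AFX6 p12 (adjusted p = 0.0521 to 0.717).

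Wnt3, the ligand that starts the primitive streak, kept its call without that library. It measured 1.78, 1.94 and 6.47 CPM in 5ar1, 1.99, 1.27 and 1.45 CPM in 5ar3 and 9.93, 11.2 and 14.8 CPM in AFX6 (log2 fold change -2.26 ± 0.45 (SE), adjusted p = 0.00732), with 5ar1 p14 the highest FS library. Mixl1, an early mesendoderm factor, measured 0.0737 to 0.419 CPM in the FS libraries (median 0.198) and 0.893, 0.542 and 2.12 CPM in AFX6 (log2 fold change -2.45 ± 0.61 (SE), adjusted p = 0.0274), and its call ended without 5ar3 p5 or AFX6 p5 or p12 (adjusted p = 0.0522 to 0.192). Hand1 was at 0 to 0.0319 CPM in FS and 0.393, 0.339 and 0.0675 CPM in AFX6, near the limit of detection in both, so no fold is given. It was called lower (adjusted p = 0.0119, edgeR), a call that ended without AFX6 p5 or p8. Eomes, a T-box factor of streak and endoderm that Nodal also regulates, was not called (0.99, adjusted p = 0.152). Of 16 Wnt targets, Wnt3 and Lgr5 fell and none rose (median -0.16). Markers of other cell types were low. The summed level of 8 extraembryonic endoderm markers was 3.22 to 17.6 CPM in FS and 4.07 to 34.6 CPM in EpiSC_AFX, of 7 trophoblast markers 4.53 to 9.71 and 4.44 to 15.7 CPM, and of 8 fibroblast markers 20.4 to 45.1 and 19 to 30 CPM. The trophoblast marker Elf5 was at 0 in all 9 libraries. Of 5, 5 and 7 such markers tested, Sox17 and Hand1 fell and Thy1 rose (1.62, adjusted p = 0.00469); the part of such cells in the differences was not tested.

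Several targets of FGF and ERK signalling and immediate early genes were lower in FS. Of 23 genes of the FGF and ERK list 4 fell and none rose, 19 estimates were negative and the median was -0.69. Of 15 immediate early genes 6 fell, 14 estimates were negative and the median was -0.79. Dusp5, a phosphatase that ERK induces and that switches ERK off, measured 4.93, 3.28 and 7.18 CPM in 5ar1, 6.04, 3.06 and 4.03 CPM in 5ar3 and 14.5, 13.3 and 9.68 CPM in AFX6 (log2 fold change -1.39 ± 0.27 (SE), adjusted p = 0.00556). All AFX6 values were above all FS values. Dusp6, a second ERK phosphatase, measured 60.5, 85.5 and 144 CPM in 5ar1, 33.5, 35.7 and 57.4 CPM in 5ar3 and 197, 169.7 and 136 CPM in AFX6; its highest FS value, in 5ar1 p14, was above the lowest AFX6 value (-1.27, adjusted p = 0.0362). The Dusp6 call ended without 5ar1 p10, 5ar3 p5 or p12 or any AFX6 library (adjusted p = 0.0538 to 0.156). Il17rd, also called Sef, an inhibitor of FGF receptor signalling, measured 32.2 to 80.6 CPM in the FS libraries (median 69.6) and 125, 109 and 150.4 CPM in AFX6 (log2 fold change -0.99 ± 0.21 (SE), adjusted p = 0.0122), and its call ended without AFX6 p12 (adjusted p = 0.0691).

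Junb, an AP-1 subunit, measured 9.01, 6.47 and 11.2 CPM in 5ar1, 3.35, 2.36 and 3.5 CPM in 5ar3 and 18, 34.4 and 21.7 CPM in AFX6 (log2 fold change -2.04 ± 0.38 (SE), adjusted p = 0.00485), with 5ar3 lowest, 5ar1 between and AFX6 highest. Ier2, a transcriptional regulator of the early response, measured 10.3 to 19 CPM in the FS libraries (median 14.2) and 33.7, 41.8 and 29.2 CPM in AFX6 (log2 fold change -1.26 ± 0.22 (SE), adjusted p = 0.00312). The Junb and Ier2 calls held whichever library was left out. Egr1, a zinc finger factor that ERK induces, measured 2.78 to 12.9 CPM in the FS libraries (median 5.18) and 16.3, 27.2 and 17.4 CPM in AFX6 (-1.56, adjusted p = 0.0296), and its call ended without 5ar1 p12, 5ar3 p5 or any AFX6 library (adjusted p = 0.0519 to 0.184). Dusp1, Egr3 and Zfp36 were the other early genes called (-0.79, adjusted p = 0.0403, -1.96, adjusted p = 0.0356 and -1.36, adjusted p = 0.0306). Dusp1 was lost without 5ar1 p12, 5ar3 p5 or p12 or AFX6 p5 or p8, Egr3 without 5ar1 p10 or p12, 5ar3 p4 or p5 or any AFX6 library and Zfp36 without 5ar1 p12, 5ar3 p12 or any AFX6 library. Of 22 tested Dusp phosphatases, a family counted after the values were seen, 5 fell and none rose. Strand counting is not given for the table, and Junb overlaps Prdx2 on the opposite strand.

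Some neuronal genes were higher in FS than in AFX6. Of 19 tested neuroectoderm genes (20 listed) 3 rose, 1 fell and the median was 1.46. Of the 19, 10 differed between the 2 FS lines, against 3.89% of all autosomal genes. A list of 45 genes of neuronal differentiation, 43 of them tested, was put together after the values were seen. Of the 43, 20 rose (46.5%, against 4.86% of all autosomal genes called), none fell and the median was 1.36. In 24 the groups did not overlap, against 9.74% of all autosomal genes. The list was chosen with these values known, so its excess over those shares describes its members alone. The summed level of this list was 554 to 819 CPM in FS, 370 to 539 CPM in EpiSC_AFX and 588 to 656 CPM in AF32, within the FS range. Without AFX6 p5, p8 or p12 the neuronal genes called numbered 8 to 12, and 7 of the 20 held whichever library was left out. Slc17a6, a vesicular glutamate transporter, measured 13.9, 13.5 and 11.6 CPM in 5ar1, 3.39, 5.56 and 4.45 CPM in 5ar3 and 0.286, 0.169 and 0.0337 CPM in AFX6 (log2 fold change 5.72 ± 0.67 (SE), adjusted p = 7.79e-05). Ntrk3, the receptor of neurotrophin-3, measured 7.3, 7.11 and 4.88 CPM in 5ar1, 8.22, 10.5 and 10.5 CPM in 5ar3 and 1.68, 0.508 and 0.978 CPM in AFX6 (log2 fold change 2.93 ± 0.39 (SE), adjusted p = 0.000275). Grin2b, an NMDA receptor subunit, measured 3.74, 4.08 and 2.88 CPM in 5ar1, 4.9, 5.51 and 5.86 CPM in 5ar3 and 0.928, 0.542 and 0.911 CPM in AFX6 (log2 fold change 2.49 ± 0.37 (SE), adjusted p = 0.000776). In all 3 genes the FS libraries lay above the AFX6 libraries, and 5ar1 exceeded 5ar3 for Slc17a6.

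Regulators of neurogenesis also rose, at low levels. Insm1, a zinc finger factor of newborn neurons, measured 3.16 to 4.99 CPM in the FS libraries (median 3.62) and 1.43, 0.678 and 0.877 CPM in AFX6 (log2 fold change 1.94 ± 0.33 (SE), adjusted p = 0.00396). Srrm4, the splicing factor of neural microexons, measured 0.482 to 4.64 CPM in the FS libraries (median 1.53) and 0.214, 0.203 and 0.169 CPM in AFX6 (3.24, adjusted p = 0.00583). Tagln3 (neuronal actin-binding protein) and Nlgn2 (synaptic adhesion) rose by 2.21 and 1.25 (adjusted p = 0.00211 and 0.00203). Penk, the proenkephalin precursor (5.21, adjusted p = 0.0305), was lost without any AFX6 library (adjusted p = 0.0934 to 0.136), and Elavl3, a neuronal RNA-binding protein (1.63, adjusted p = 0.0103), without AFX6 p12 (adjusted p = 0.0504).

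Pax6, a regulator of early neuroectoderm, measured 1.26, 0.892 and 1.49 CPM in 5ar1, 5.12, 4.24 and 3.43 CPM in 5ar3 and 0.464, 0.136 and 0.202 CPM in AFX6 (log2 fold change 3.34 ± 0.75 (SE), adjusted p = 0.0155). Its call ended without AFX6 p8 or p12 (adjusted p = 0.0728 to 0.104). Sox1, a definitive neural progenitor factor, measured 1.19, 1.31 and 1.05 CPM in 5ar1, 27.3, 22.9 and 18.5 CPM in 5ar3 and 0.571, 0.169 and 2.09 CPM in AFX6. The 5ar3 libraries stood far above the other 6 and the groups were not called apart (3.66, adjusted p = 0.0878), while the lines differed (adjusted p = 0.000885). Tubb3, neuronal tubulin, measured 59.1 to 97.8 CPM in the FS libraries (median 74.9) and 36.3, 35.9 and 18.7 CPM in AFX6 (1.36, adjusted p = 0.0413), lost without 5ar1 p12, any 5ar3 library or any AFX6 library (adjusted p = 0.0527 to 0.168). Nes, an intermediate filament of neural progenitors, fell instead (-0.90, adjusted p = 0.0434), and was lost without 5ar1 p10 or p12, 5ar3 p5 or p12 or AFX6 p5 or p8 (adjusted p = 0.0651 to 0.301). Dll1 and Dll3, 2 ligands of Notch, rose, of 15 tested pathway genes (17 listed, none lower). Dll1 measured 13.2, 7.59 and 6.91 CPM in 5ar1, 19.9, 15.5 and 14.6 CPM in 5ar3 and 1.57, 0.441 and 2.63 CPM in AFX6 (log2 fold change 3.06 ± 0.68 (SE), adjusted p = 0.0148), and Dll3, which acts inside the cell, measured 14.9, 16 and 16.1 CPM in 5ar1, 22.4, 17 and 27 CPM in 5ar3 and 3.21, 5.83 and 9.28 CPM in AFX6 (log2 fold change 1.63 ± 0.33 (SE), adjusted p = 0.00751). The groups did not overlap for either gene. The Dll1 call ended without AFX6 p5 or p8 (adjusted p = 0.069 to 0.0901) and the Dll3 call without AFX6 p8 (adjusted p = 0.0524).

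Hairpin genes of the 2 microRNA clusters of pluripotent cells moved in opposite directions. Both families target regulators of the cell cycle and of differentiation. The Mir302-Mir367 cluster is characteristic of the epiblast and the Mir290 cluster of earlier embryonic cells. Their mature sequences are shown because the clusters share a seed, the bases at positions 2 to 8, which is in capitals. They come from RefSeq (GRCm38.p6), where all 12 hairpin genes had a mature entry. Mir302a and Mir292 had only a 5p entry there, so their 3p seeds were not compared.
miR-302b-3p: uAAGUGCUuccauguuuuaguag
miR-302d-3p: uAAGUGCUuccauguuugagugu
miR-367-3p: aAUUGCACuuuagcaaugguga
miR-291a-3p: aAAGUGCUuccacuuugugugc
miR-291b-3p: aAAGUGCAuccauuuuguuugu
miR-293-3p: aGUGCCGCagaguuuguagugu
Among the 3p sequences compared, the seed AAGUGCU was shared by 5 mature microRNAs, those of Mir302b, Mir302d, Mir291a, Mir294 and Mir295. The seed AAGUGCA of miR-291b-3p ends in another base. Whether Mir302a shares the seed cannot be read from its 5p entry. The seeds of miR-367-3p (AUUGCAC) and miR-293-3p (GUGCCGC) were not shared with another 3p sequence here.

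Of 4 tested Mir302-Mir367 hairpins (Mir302c was too low to test) all 4 rose in FS, with a median of 2.52, and of 6 tested Mir290 hairpins (Mir294 not tested) 2 fell, with a median of -1.30 and 6 negative estimates. Both families were listed after the values were seen. Mir302a measured 4.19, 7.84 and 3.62 CPM in 5ar1, 14, 30.9 and 10 CPM in 5ar3 and 0.928, 3.29 and 2.12 CPM in AFX6 (log2 fold change 2.47 ± 0.63 (SE), adjusted p = 0.0296). Mir367 measured 1.37, 2.01 and 2.1 CPM in 5ar1, 9.43, 4.43 and 4.07 CPM in 5ar3 and 0.321, 0.576 and 0.54 CPM in AFX6 (log2 fold change 3.01 ± 0.61 (SE), adjusted p = 0.00775). In both the 5ar3 libraries were highest, 5ar1 next and AFX6 lowest, and the lines differed by -1.81 and -1.71 (5ar1 minus 5ar3). The Mir302a call ended without any AFX6 library (adjusted p = 0.0652 to 0.144) and the Mir367 call without AFX6 p5 (adjusted p = 0.0517). Mir302b (2.58, adjusted p = 0.015) was lost without AFX6 p5 or p12 (adjusted p = 0.0681 to 0.085), and Mir302d (2.21, adjusted p = 0.0499) without any 5ar3 library or any AFX6 library (adjusted p = 0.0703 to 0.188). These hairpins lie at chr3:127545228-127545807 (GRCm38, plus strand) within Larp7, which runs on the minus strand. Larp7 measured 70.9 to 95 CPM in the FS libraries (median 83) and 72.9, 83.2 and 70.1 CPM in AFX6 and was not called (0.14, adjusted p = 0.699).

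Mir293 measured 3.11, 3.57 and 6.36 CPM in 5ar1, 2.91, 2.26 and 2.93 CPM in 5ar3 and 13.5, 15.6 and 8.9 CPM in AFX6 (log2 fold change -1.84 ± 0.26 (SE), adjusted p = 0.000495), and Mir291b measured 2.71, 3.35 and 3.89 CPM in 5ar1, 1.36, 1.65 and 2.55 CPM in 5ar3 and 9.53, 8.61 and 6.31 CPM in AFX6 (log2 fold change -1.65 ± 0.28 (SE), adjusted p = 0.00207). AFX6 was above FS without overlap for both, and both calls held whichever library was left out. Mir290a (-1.18, adjusted p = 0.0854) and Mir291a (-1.42, adjusted p = 0.0742) were not called. Mir291b lies at chr7:3219482-3219560 and Mir293 at chr7:3220343-3220422, both on the plus strand and opposite Nlrp12. The rows count fragments of hairpin genes in a library of long RNA, which is not a measure of mature microRNA.

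**Figure D3:**
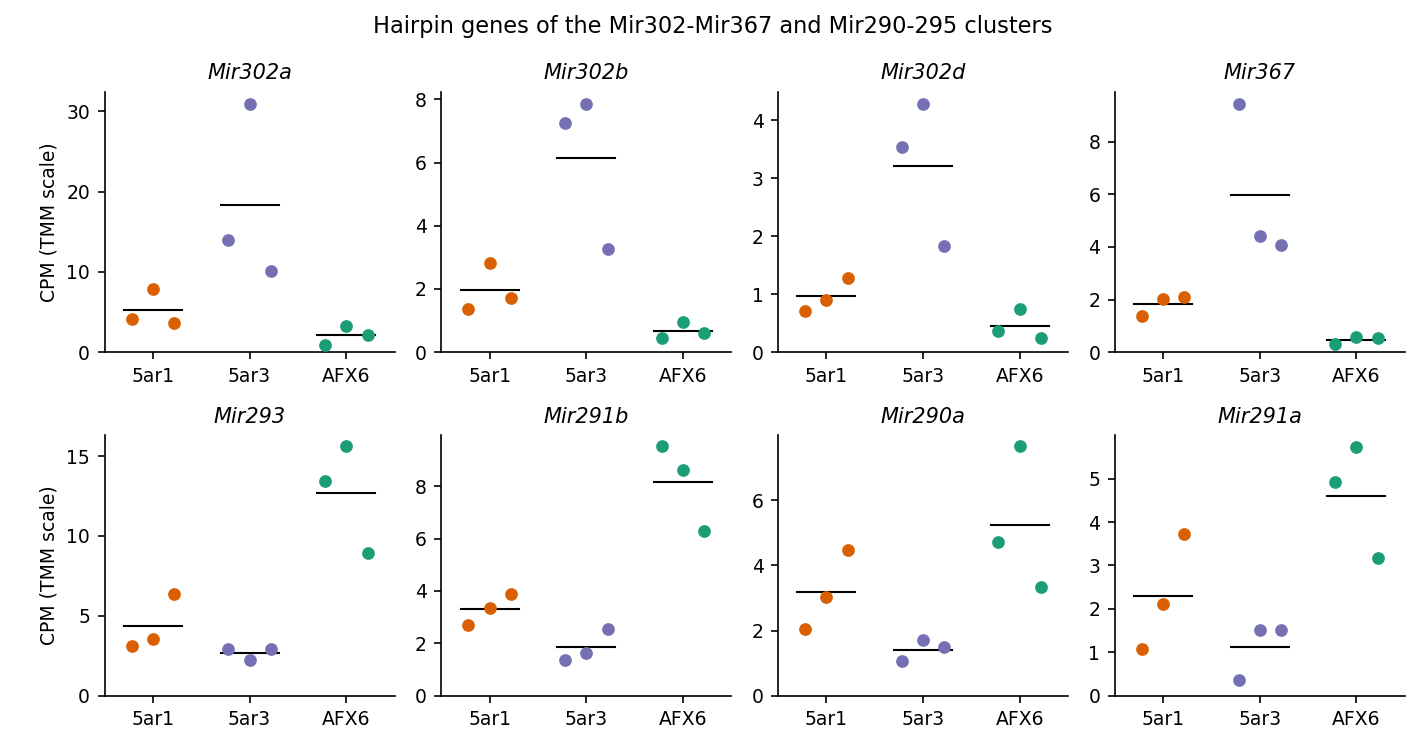
Each point is 1 library, in order of passage within a line, and the bar is the mean of a line, on a linear axis of CPM (TMM scale). Mir302a, Mir302b, Mir302d and Mir367 are highest in 5ar3 and lowest on average in AFX6, whereas Mir293 and Mir291b are highest in AFX6. Mir290a and Mir291a, which were not called, overlap between groups.

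Imprinted genes rose more often than they fell, the cell cycle inhibitor Cdkn1c among them. Of 35 tested imprinted genes (36 listed, Rtl1 too low) 6 rose and 1 fell, 25 estimates were positive and the median was 0.72. The summed level of the 36 listed was 3231 to 4542 CPM in FS, 2606 to 3618 CPM in EpiSC_AFX and 4425 to 4680 CPM in AF32. Nnat, a paternally expressed proteolipid that is also a neuroectoderm marker, measured 57.8, 77.9 and 67.1 CPM in 5ar1, 64.7, 66 and 18.7 CPM in 5ar3 and 1.04, 0.407 and 1.89 CPM in AFX6 (log2 fold change 5.72 ± 0.53 (SE), adjusted p = 1.02e-05). It lies at chr2:157560078-157562522 inside Blcap, which runs on the opposite strand. 5ar3 p12 was the lowest FS library and still stood above all AFX6 libraries. In AF32 Nnat was low too, with a mean of 0.055 CPM. Cdkn1c, a maternally expressed inhibitor of cyclin-dependent kinases, measured 30.5, 29.7 and 35 CPM in 5ar1, 91.4, 62.2 and 61.7 CPM in 5ar3 and 15.8, 12.5 and 12.3 CPM in AFX6 (log2 fold change 1.93 ± 0.34 (SE), adjusted p = 0.00317), with 5ar3 above 5ar1 and both above AFX6. Peg13, Magel2, Ndn and Rian rose by 2.80, 1.59, 1.14 and 0.63 (adjusted p = 0.0123, 0.0255, 0.0284 and 0.0269), and each call ended without AFX6 p8 or another library (adjusted p up to 0.159). Peg13 lies within Trappc9 on the same strand. Peg10, a retrotransposon-derived gene of the placenta, fell (-1.89, adjusted p = 0.0238) and was lost without AFX6 p12 (adjusted p = 0.169). None of 10 genes of DNA methylation was called, Dnmt3b among them (0.54, adjusted p = 0.422).

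Other inhibitors of the cell cycle went the opposite way. Of 20 cell cycle genes Cdkn1c rose, Cdkn2a and Cdkn2b fell and 17 were not called. Cdkn2a, the locus of p16Ink4a and p19Arf, measured 0.0741, 0.0319 and 0.169 CPM in 5ar1, 0.0368, 0 and 0.114 CPM in 5ar3 and 0.643, 0.271 and 1.86 CPM in AFX6 (log2 fold change -3.57 ± 0.64 (SE), adjusted p = 0.00312). Cdkn2b, its neighbour that encodes p15Ink4b, measured 0.63, 0.255 and 0.474 CPM in 5ar1, 0.626, 0.471 and 0.19 CPM in 5ar3 and 1.32, 2.3 and 2.97 CPM in AFX6 (log2 fold change -2.31 ± 0.38 (SE), adjusted p = 0.00161). Both were lower in every FS library than in every AFX6 library, and both calls held whichever library was left out. Outside 5ar1 p14, FS libraries held at most 3 counts of Cdkn2a, so the size of its fold is uncertain. Of 18 p53 targets 3 fell and none rose (median -0.20). Perp, a desmosomal and apoptotic membrane protein, measured 8.3 to 22.6 CPM in the FS libraries (median 13.6) and 37.4, 41.9 and 42.4 CPM in AFX6 (log2 fold change -1.50 ± 0.23 (SE), adjusted p = 0.00108), and Gdf15 and Pmaip1 fell by 1.62 and 3.57 on the log2 scale (adjusted p = 0.04995 and 0.0374). Gdf15 was lost without 5ar1 p10, 5ar3 p5 or p12 or any AFX6 library and Pmaip1 without 5ar1 p10 or p12, any 5ar3 library or AFX6 p5.

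Matrix and adhesion genes split by class. Of 21 tested collagens (23 listed) 3 rose, none fell and 19 estimates were positive, with a median of 0.58. The summed level of the 23 listed was 280 to 385 CPM in FS, 224 to 232 CPM in EpiSC_AFX and 288 to 361 CPM in AF32. Of 27 tested laminins, integrins and basement membrane genes (28 listed) 1 rose and 5 fell, with a median of -0.28. Col9a3, a chain of a fibril-associated collagen, measured 14, 10.6 and 10.3 CPM in 5ar1, 10.5, 10.6 and 12.4 CPM in 5ar3 and 2.96, 2.75 and 3.14 CPM in AFX6 (log2 fold change 1.95 ± 0.36 (SE), adjusted p = 0.00413), with close values within each group. Col5a2 (2.23, adjusted p = 0.0481) and Col18a1 (0.58, adjusted p = 0.0446) were the other collagens called. The Col5a2 call ended without any 5ar1 library, 5ar3 p4 or p5 or any AFX6 library (adjusted p = 0.0547 to 0.173) and that of Col18a1 without 5ar1 p10 or p12, any 5ar3 library or any AFX6 library. Itga3, an integrin that binds laminin-332, measured 39.1, 22.9 and 36.8 CPM in 5ar1, 32.9, 14.2 and 22.2 CPM in 5ar3 and 136, 159 and 109 CPM in AFX6 (log2 fold change -2.26 ± 0.32 (SE), adjusted p = 0.000433). Lama3, a chain of that laminin, measured 1.37, 1.56 and 1.79 CPM in 5ar1, 0.368, 0.283 and 0.761 CPM in 5ar3 and 4.5, 4.47 and 3.34 CPM in AFX6 (log2 fold change -1.98 ± 0.42 (SE), adjusted p = 0.0102), and both were lower in every FS library. Lama1, the laminin chain of the embryonic basement membrane, rose (log2 fold change 2.21 ± 0.49 (SE), adjusted p = 0.015), a call that ended without AFX6 p8 (adjusted p = 0.103). Itgb3, Itga8 and Nid2 fell (-2.63, adjusted p = 0.00346, -1.52, adjusted p = 0.014 and -0.86, adjusted p = 0.0468). Itga8 was lost without AFX6 p12 and Nid2 without 5ar1 p12 or p14, any 5ar3 library or any AFX6 library.

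Of 30 epithelial genes Sfn, Cldn7 and Krt8 were lower in FS, and most of the list differed between the FS lines. Of the 30, 3 fell, none rose, 27 estimates were negative and 21 were called between 5ar1 and 5ar3, against 692 of all autosomal genes (3.89%). The median was -0.48. Sfn, the epithelial 14-3-3 protein, measured 14.5, 10.3 and 31.6 CPM in 5ar1, 2.17, 0.33 and 0.152 CPM in 5ar3 and 60.1, 214 and 73.3 CPM in AFX6 (log2 fold change -3.55 ± 0.90 (SE), adjusted p = 0.0308). Cldn7, a tight junction claudin, measured 19.7, 12.2 and 19.5 CPM in 5ar1, 4.31, 1.84 and 1.45 CPM in 5ar3 and 47.6, 66.9 and 36.6 CPM in AFX6 (log2 fold change -2.35 ± 0.61 (SE), adjusted p = 0.0355). AFX6 was highest and 5ar3 lowest for both, and the groups did not overlap. The Sfn call ended without 5ar1 p12, 5ar3 p4 or AFX6 p5 or p8 (adjusted p = 0.0505 to 0.181), and that of Cldn7 without 5ar3 p4 or any AFX6 library (adjusted p = 0.0589 to 0.154). Krt8, a keratin of simple epithelia, fell (-1.68, adjusted p = 0.0281) and was lost without 5ar3 p4 or AFX6 p8 or p12 (adjusted p = 0.0522 to 0.118). Of 14 tested mesenchymal genes Twist1, a bHLH factor of mesenchyme, alone was called: it measured 0.255 to 1.67 CPM in the FS libraries (median 0.632) and 9.35, 6.54 and 4.49 CPM in AFX6 (log2 fold change -3.05 ± 0.43 (SE), adjusted p = 0.00043), in the same direction as the 3 called epithelial genes.

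Some genes that interferon and NF-kB induce were lower in FS. In a list of 39 put together after the values were seen, 34 were tested, 19 fell, none rose and 30 estimates were negative, with a median of -1.28. Its members were chosen with these values known, so these counts describe them alone. Without AFX6 p8, p12 or p5 the number called was 8, 14 or 15, and 6 of the 19 held whichever library was left out. Gbp2, an interferon-induced GTPase, measured 1.26, 1.4 and 5.96 CPM in 5ar1, 2.54, 1.04 and 4.38 CPM in 5ar3 and 17.1, 41.2 and 17.2 CPM in AFX6 (log2 fold change -3.18 ± 0.44 (SE), adjusted p = 0.000401). Gbp2b, a near relative with which reads may be shared, measured 1.22, 0.797 and 3.83 CPM in 5ar1, 0.921, 0.518 and 1.52 CPM in 5ar3 and 10.3, 30.8 and 13.9 CPM in AFX6 (log2 fold change -3.62 ± 0.46 (SE), adjusted p = 0.000195). AFX6 p8 was highest for both, and no FS library reached an AFX6 one. Ltb, lymphotoxin beta, measured 0.297, 0.223 and 0.542 CPM in 5ar1, 1.07, 0.565 and 0.761 CPM in 5ar3 and 3.18, 8.57 and 5.8 CPM in AFX6 (log2 fold change -3.34 ± 0.43 (SE), adjusted p = 0.000184). Irgm1, an immunity-related GTPase, measured 0.221 to 3.83 CPM in the FS libraries (median 0.865) and 10, 12.3 and 5.63 CPM in AFX6 (log2 fold change -2.86 ± 0.56 (SE), adjusted p = 0.00642). Ccl20, a chemokine, was at 0 to 0.0677 CPM in FS, no more than 3 counts in any library, and 0.928, 2.1 and 0.877 CPM in AFX6 (adjusted p = 0.00043). Icam1, Nfkbia and Rel, targets of NF-kB, and Irf1 fell (-1.04, adjusted p = 0.0163, -0.95, adjusted p = 0.0196, -1.19, adjusted p = 0.0137 and -1.38, adjusted p = 0.0135). Their calls each ended without 1 or more AFX6 libraries, with adjusted p up to 0.166 for Nfkbia. Nfkb1, a subunit of NF-kB itself, was not called (-0.07, adjusted p = 0.875).

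The interferon response element, here GAAA repeated after 2 bases of any kind and a motif chosen after the values were seen, stood, from 250 bases before to 50 after the start site, in 5 of 16 promoters (31.2%) of the interferon and NF-kB genes that fell, and in 2.87% of the 11132 promoters of autosomal genes tested, on either strand. The windows of 3 of them are shown for the GTPase genes, with the motif in capitals and the gene's strand as read; the sequence is from RefSeq (GRCm38.p6).
Gbp2 chr3:142620593-142620624 (plus strand): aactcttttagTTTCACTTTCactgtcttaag
Gbp3 chr3:142559988-142560019 (plus strand): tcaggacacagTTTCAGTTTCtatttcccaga
Irgm1 chr11:48871430-48871461 (minus strand): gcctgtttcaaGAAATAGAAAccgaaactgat
The matches start 59, 45 and 30 bases before the start sites of Gbp2, Gbp3 and Irgm1, and Gbp3 and Irgm1 each hold a second, overlapping match. The motif also stood in the promoter of Cfc1, and no binding was measured. The list was made of genes known to respond to interferon or NF-kB, and its members that did not fall were not counted. The share of all promoters therefore cannot tie the motif to the fall. Promoter sequences were at hand for 16 of the 19 interferon and NF-kB genes that fell and for 4 genes of the Nodal lists that fell. Among motifs chosen beforehand, that of Foxh1 stood in 1 of these 4 and in 2 of the 16 (12.5%), against 6.68% of all. With 4 promoters an excess cannot be read. The motifs of Smad and Tcf/Lef stood in none of the 4. The direct repeat of retinoic acid receptors, also chosen beforehand, was not searched.

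Antigen presentation genes did not move as 1 block. Of 22 tested genes of MHC class I and antigen processing (28 listed) H2-Q6 rose, Psmb8 and Irf1 fell and 19 were not called, with a median of -0.46. H2-Q6, a nonclassical class I gene, measured 27.6, 13.9 and 9.58 CPM in 5ar1, 5.23, 4.29 and 4.8 CPM in 5ar3 and 0.107, 0.0678 and 0.27 CPM in AFX6 (log2 fold change 6.15 ± 0.74 (SE), adjusted p = 9.97e-05). It stood at 0.0643, 0.0981 and 0.0708 CPM in the AF32 libraries too. AFX6 held 3, 2 and 8 counts of H2-Q6, so the size of its fold is uncertain. The H2-Q genes are near-identical copies that can also differ between strains, so reads of H2-Q6 are uncertain. Psmb8, a subunit of the immunoproteasome, measured 0.111 to 1.07 CPM in the FS libraries (median 0.27) and 1.54, 2.47 and 1.65 CPM in AFX6 (-2.21, adjusted p = 0.00853), and its call ended without AFX6 p8 (adjusted p = 0.0634). The families of calcium-dependent proteins counted after the values were seen were lower: 3 of 10 tested annexins and 3 of 6 tested S100a proteins fell and none rose. Anxa1 measured 0.482, 0.191 and 1.32 CPM in 5ar1, 0.847, 0.471 and 0.609 CPM in 5ar3 and 10.4, 6.2 and 12 CPM in AFX6 (log2 fold change -3.85 ± 0.48 (SE), adjusted p = 0.000144), and S100a6 measured 4.71, 2.9 and 7.89 CPM in 5ar1, 4.9, 3.91 and 2.93 CPM in 5ar3 and 25.2, 37.4 and 16.3 CPM in AFX6 (log2 fold change -2.53 ± 0.36 (SE), adjusted p = 0.00047). Both were higher in every AFX6 library than in any FS library.

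Among 11 germ cell specification genes 1 rose and 4 fell (median -0.69). Fut4, which makes the SSEA1 epitope, measured 1.96, 1.69 and 1.02 CPM in 5ar1, 2.14, 2.78 and 1.45 CPM in 5ar3 and 0.0357, 0.102 and 0.0337 CPM in AFX6 (adjusted p = 0.000234), with at most 3 counts in each AFX6 library. Itgb3, a surface integrin used to sort primordial germ cells, measured 0.319 to 1.81 CPM in the FS libraries (median 0.54) and 4.03, 3.15 and 6.27 CPM in AFX6 (log2 fold change -2.63 ± 0.47 (SE), adjusted p = 0.00346). Prdm1, the factor also called Blimp1, measured 0.0368 to 0.381 CPM in the FS libraries (median 0.108) and 0.571, 0.339 and 2.77 CPM in AFX6 (-3.08, adjusted p = 0.0126), and its call ended without AFX6 p12 (adjusted p = 0.211). Ifitm3 and Tfap2c, an early membrane marker and an AP-2 factor of germ cell fate, fell (-1.84, adjusted p = 0.0095 and -1.48, adjusted p = 0.0379). Ifitm3 was lost without AFX6 p8 (adjusted p = 0.0734) and Tfap2c without any 5ar1 library, 5ar3 p5 or p12 or AFX6 p5 or p12 (adjusted p = 0.05001 to 0.212). None of 11 tested germline genes silenced by methylation was called (16 listed). Of 14 naive pluripotency genes Klf5 alone was called. It measured 2.63, 1.18 and 2.13 CPM in 5ar1, 2.58, 1.37 and 2.36 CPM in 5ar3 and 8.82, 14.6 and 8.97 CPM in AFX6 (log2 fold change -2.40 ± 0.26 (SE), adjusted p = 3.04e-05) and kept its call whichever library was left out. Of 13 formative epiblast genes Sall2 and Sox4 rose and none fell (median 0.01). Sall2, a zinc finger factor, measured 111, 159 and 176 CPM in 5ar1, 162, 144 and 155 CPM in 5ar3 and 92.8, 68.8 and 53.3 CPM in AFX6 (1.08, adjusted p = 0.00997) and was lost without AFX6 p8 or p12 (adjusted p = 0.065 to 0.0652). The Sox4 call (0.58, adjusted p = 0.045) ended without 5ar1 p10 or p12, any 5ar3 library or any AFX6 library (adjusted p = 0.0535 to 0.177). Of 18 tested genes of retinoid response and metabolism (20 listed) Rxra alone was called (0.69, adjusted p = 0.0413), lost without 5ar3 p4 or p12 or AFX6 p5 or p8 (adjusted p = 0.0614 to 0.228).

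Genes outside these lists also separated the groups, among them Arpin, Wdr86 and Tnc. By a fixed rule (called, a change of 1 or more on the log2 scale, groups that do not overlap, and 10 CPM or more on average in the group with the higher level) 92 higher and 74 lower genes qualified, and 14 each way, of the 15 with the largest change, are plotted by library. Arpin, an inhibitor of the Arp2/3 complex, measured 8.04, 10.1 and 9.34 CPM in 5ar1, 12.1, 14.9 and 11.8 CPM in 5ar3 and 0.0714, 0 and 0.337 CPM in AFX6 (log2 fold change 6.28 ± 0.52 (SE), adjusted p = 3.60e-06). Wdr86 measured 37.2, 33.1 and 26.3 CPM in 5ar1, 38.8, 36.6 and 38.4 CPM in 5ar3 and 2, 1.69 and 1.42 CPM in AFX6 (log2 fold change 4.36 ± 0.41 (SE), adjusted p = 1.19e-05). Npepl1, an aminopeptidase, measured 12.5, 11.8 and 10 CPM in 5ar1, 8.62, 8.62 and 13.4 CPM in 5ar3 and 1.36, 2.24 and 2.29 CPM in AFX6 (log2 fold change 2.46 ± 0.24 (SE), adjusted p = 1.66e-05). FS was far above AFX6 for these 3, and Wdr86 and Npepl1 had little spread within a group. Arpin had 2, 0 and 10 counts in the AFX6 libraries, so the size of its fold is uncertain. Igsf10, Gpx3 and Mir124-2hg rose by 5.02, 4.53 and 4.27 (adjusted p = 1.02e-05, 8.44e-05 and 0.00122). Gpx3 is a secreted glutathione peroxidase and Mir124-2hg hosts the neuronal miR-124. Igsf10 overlaps Med12l on the opposite strand. Sorcs1 and Lrrc4b, a sorting receptor and a synaptic adhesion protein of neurons, rose by 3.05 and 2.77, both more in 5ar3. Ldoc1l rose by 2.81. Among the lower genes, Tnc (tenascin C, a matrix glycoprotein) measured 1.59 to 17.3 CPM in the FS libraries (median 4.74) and 57.6, 23.7 and 45.2 CPM in AFX6 (log2 fold change -2.61 ± 0.50 (SE), adjusted p = 0.00584). Platr10, a noncoding RNA of pluripotent cells, fell by 3.36 and Myof, a membrane repair protein, by 2.26 on the log2 scale (adjusted p = 0.0031 and 0.00642); Myof was lost without AFX6 p12 (adjusted p = 0.0579).

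**Figure D4:**
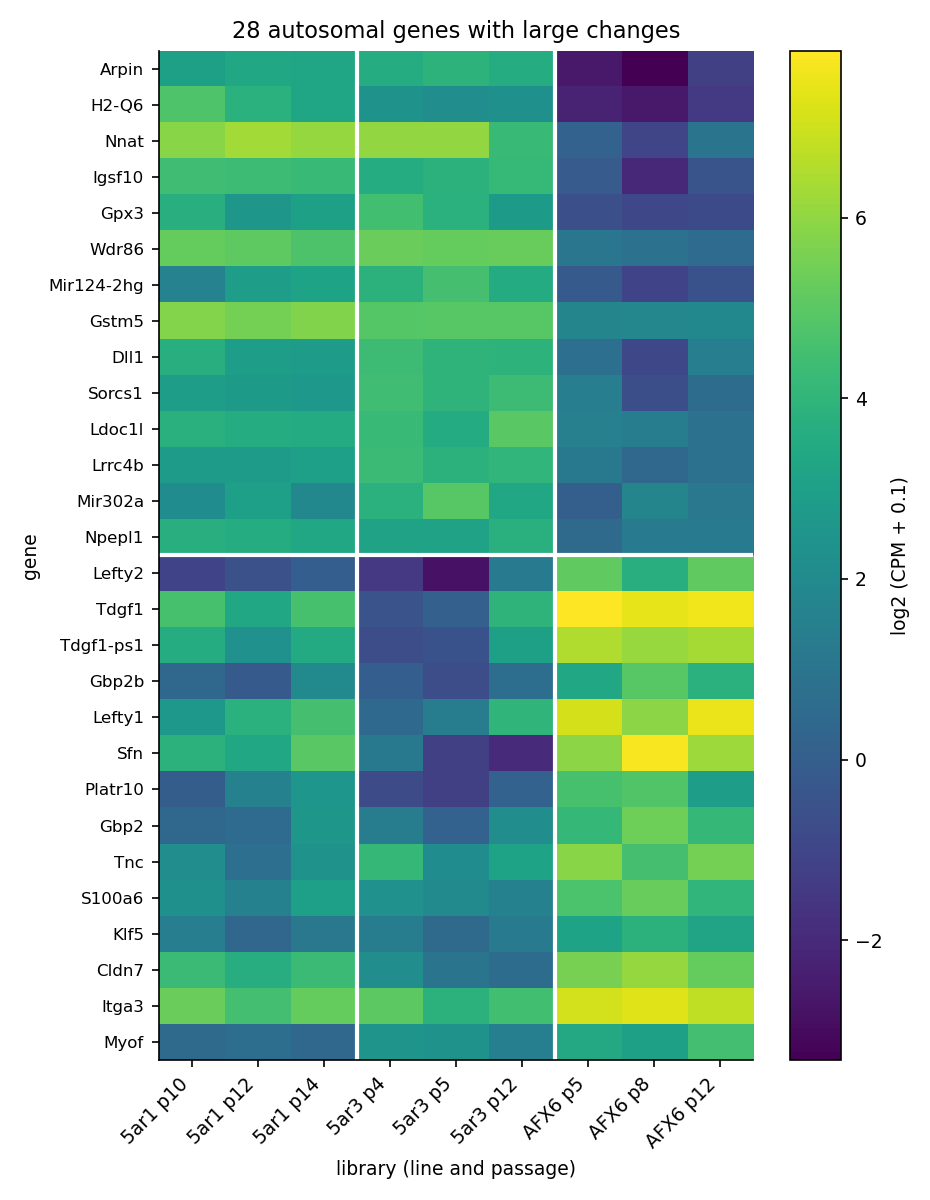
Rows are 28 genes chosen by the fixed rule, 14 higher in FS above the line and 14 lower below it, and columns are the 9 libraries by line and passage. Colour is log2 of CPM plus 0.1. FS and AFX6 columns separate in every row because the rule required it. Rows such as Sfn, Cldn7 and H2-Q6 also differ between 5ar1 and 5ar3.

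Several gene families were counted after their values were seen. Of 7 glutathione transferases of the Gstm class 4 rose, none fell and the median was 1.08. Gstm5 measured 55, 46 and 53.1 CPM in 5ar1, 29.9, 30.9 and 30.8 CPM in 5ar3 and 3.28, 3.49 and 3.58 CPM in AFX6 (log2 fold change 3.57 ± 0.38 (SE), adjusted p = 3.04e-05), and Gstm1 and Gstm7 rose by 1.08 and 1.31; copies of this class are similar in sequence. Gstm5 was at 29.6, 28.5 and 27.2 CPM in AF32, the epiblast stem cell line in AF medium, so that its low level was seen in AFX6 and not in the other epiblast line. Clustered protocadherins, adhesion proteins that neurons use to tell self from non-self, were low in all libraries. In the beta cluster 9 of 22 genes passed the filter on low counts and all 9 of these were called higher, but a gene that passes such a filter through FS alone has to differ; in the alpha cluster 1 of 5 tested (13 listed) and in the gamma cluster 1 of 20 tested (21 listed) rose. Pcdhb19 measured 2.3, 3.86 and 3.96 CPM in 5ar1, 1.62, 2.12 and 2.82 CPM in 5ar3 and 0.357, 0.102 and 0.405 CPM in AFX6 (log2 fold change 3.25 ± 0.48 (SE), adjusted p = 0.000692), and Pcdhb17 measured 1.93, 2.8 and 1.66 CPM in 5ar1, 1.07, 1.51 and 1.33 CPM in 5ar3 and 0.286, 0.237 and 0.236 CPM in AFX6 (log2 fold change 2.74 ± 0.44 (SE), adjusted p = 0.0027). FS lay above AFX6 in every library for both, at low levels. The summed level of the 22 beta genes was 8.73 to 21.9 CPM in FS, 1.53 to 3.68 CPM in EpiSC_AFX and 12.8 to 16 CPM in AF32.

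Other genes with large fold changes were picked after their values were seen. Sdr39u1, a short-chain dehydrogenase, measured 6.52, 5.39 and 6.84 CPM in 5ar1 and 2.95, 2.5 and 3.43 CPM in 5ar3, and had 0 counts in all 3 AFX6 libraries. With a floor of 3 counts per library it was at least 44.5-fold higher in FS (adjusted p = 3.60e-06). It was at 0.225, 0.163 and 0.106 CPM in AF32, and it overlaps Khnyn on the opposite strand. Nt5e, the ectonucleotidase CD73, measured 0 to 0.508 CPM in the FS libraries (median 0.119) and 6.71, 6 and 11.4 CPM in AFX6 (log2 fold change -5.39 ± 0.62 (SE), adjusted p = 7.74e-05) and 18.7, 11.7 and 6.69 CPM in AF32. Cdcp1, a transmembrane protein of epithelial cells, measured 0.0381 to 0.236 CPM in the FS libraries (median 0.0878) and 7.07, 9.66 and 2.6 CPM in AFX6 (log2 fold change -5.71 ± 0.47 (SE), adjusted p = 1.02e-05) and 0 in all 3 AF32 libraries. The FS medians of Nt5e and Cdcp1 lay near 3 counts per library, so the sizes of their folds are uncertain. Dlx4 measured 0 to 0.111 CPM in the FS libraries (median 0.0339) and 2.46, 2.14 and 1.38 CPM in AFX6 (adjusted p = 6.01e-05) and 1.22, 0.817 and 1.38 CPM in AF32. Its antisense partner Dlx4os overlaps it, and the 2 cannot be separated if counting ignored strand. Set beside the second epiblast line, Dlx4, Nt5e, Tdgf1 and Lefty1 were high in both AFX6 and AF32, whereas Cdcp1 was high in AFX6 alone. Tdgf1 measured 191, 231 and 289.9 and Lefty1 81, 209 and 194 CPM in AF32. Nodal measured 22.1, 37.9 and 24.8 and Lefty2 9.29, 10.2 and 8.63 CPM there. Cldn7 measured 11.4, 6.93 and 5.91 CPM there, near the FS values rather than those of AFX6. These are levels; no difference between AFX6 and AF32 was tested.

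Other pathways had 1 called gene or none. None was called of 19 BMP pathway, 12 tested Hippo target, 15 fatty acid synthesis, 12 tested contractile actin or 22 tested amino acid response genes, although 21 of the last 22 estimates were negative (median -0.32). Of 31 glycolysis and hypoxia genes Ankrd37 fell, of 13 tested Polycomb genes Cbx2 rose, of 23 cholesterol synthesis genes 1 rose and of 10 tested LIF and STAT3 genes Bcl3 fell. The calls of Ankrd37, Cbx2 and Bcl3 ended without AFX6 p12, and also without other libraries. Ankrd37 was lost without 5ar3 p12 or AFX6 p5 and Bcl3 without 5ar1 p12, 5ar3 p12 or AFX6 p8. Cbx2 was lost without 5ar1 p12, 5ar3 p5 or p12 or any AFX6 library. Medians of the BMP, cell cycle and glycolysis lists changed sign with scaling by total counts (0.08, 0.07 and 0.08). Of 21 Hox genes 20 were matched to the count table and 4 were high enough to test, and of 15 genes of the 2-cell-like state 13 were matched and 1 was high enough; none was called. The called genes lay on all 19 autosomes, from 3.11% of tested genes on chromosome 16 to 8.57% (39 of 455) on chromosome 18, where the protocadherin clusters lie. Protein-coding genes were 87.6% of the 500 higher calls, 87.6% of the 363 lower calls and 78.1% of genes tested. The FS lines were not alike. Of the higher and lower calls 47 (9.4%) and 24 (6.61%) were also called between 5ar1 and 5ar3, against 3.89% of all genes tested. With 1 line at a time against EpiSC_AFX, 5ar1 gave 710 and 5ar3 1605 calls.

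**Figure D5:**
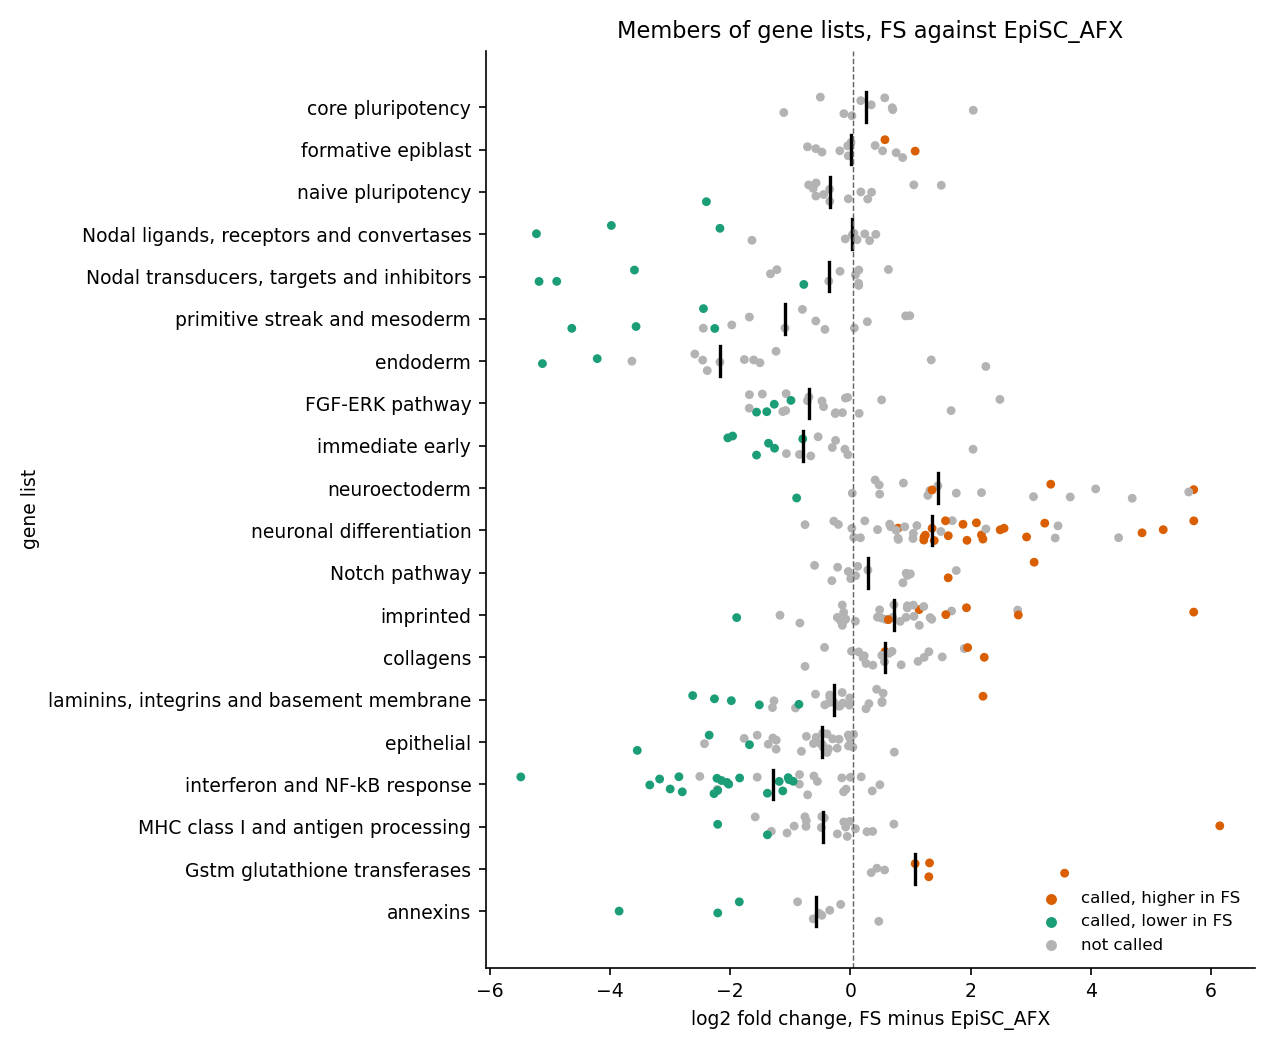
Each point is 1 tested gene of a list, placed by its log2 fold change, FS minus EpiSC_AFX, and coloured by whether it was called. The black bar is the list's median and the dashed line the median of all autosomal genes (0.04). Called members of the Nodal, streak, FGF-ERK, immediate early and interferon lists lie to the left, and those of the neuronal, Notch and collagen lists to the right.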

How the data were processed

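The deposited table gave raw read counts per gene, 1 column for each library, with no pooling. Reads were trimmed with Trim Galore, aligned with TopHat2 2.1.0 to mm10 and counted with featureCounts 1.5.0, per the submitters' processing notes. RNA libraries were made with a directional kit, per the labels' protocols; the annotation release and the strand setting of the counting are not given in the sources used here. The 16 columns that match a sample were used, and 6 columns that match none were left out.

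Counts were filtered with filterByExpr, scaled by TMM and fitted over all 16 libraries and 4 groups with edgeR 4.0.16 (robust quasi-likelihood fit, limma 3.58.1, R 4.3.3), and p-values were adjusted over all genes tested by the Benjamini-Hochberg method. A gene was called at an adjusted p under 0.05. The FS mean gave each library equal weight, and a second fit gave each FS line its own group. No 2 libraries of a line agreed within sampling noise (chi-square test of counts). Replicates were numbered in accession order and do not pair the groups. Scripts were tested on simulated data.

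The members and gene lists were chosen with earlier results of these data known; 38 lists were written first and 12 families or lists were added after the values were seen. Genes named are list members and the 15 called autosomal genes with the largest change in each direction, if groups did not overlap, the log2 change was 1 or more and the group with the higher level averaged 10 CPM or more; others named are said to be chosen later. A few genes that met this rule are not reported here. DESeq2 1.42.0, other scalings, filters and sample sets, and leaving out each library, were tried as alternatives. Of 34042 rows, 33860 identifiers were found in GENCODE M21, which gave chromosomes. Promoter and microRNA sequences were taken from RefSeq (GRCm38.p6).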

Additional observations from a re-analysis of the deposited data

Results flagged for a closer look

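Of 124 genes checked, 11 had an FS library that stood apart from the other 5, with a gap to the nearest of more than 0.625 of the group's range; chance gives this in about 1 of 20 groups. The library 5ar1 p14 held the highest FS value of Wnt3 at 6.47 CPM, Gbp2b at 3.83 CPM, Irgm1 at 3.83 CPM and Mir293 at 6.36 CPM. The library 5ar3 p12 held the highest FS value of Lgr5 at 1.29 CPM, Srrm4 at 4.64 CPM, Prdm1 at 0.381 CPM and Ldoc1l at 31.7 CPM. The library 5ar3 p12 held the lowest FS value of Nnat at 18.7 CPM. The library 5ar3 p4 held the highest FS value of Itgb3 at 1.81 CPM. The library 5ar1 p12 held the highest FS value of Dlx4os at 0.0319 CPM, against 0 CPM in the other FS libraries. That value is below 3 counts, so this gap carries no weight. 

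The FS lines differed by edgeR's test (adjusted p under 0.05) for 24 of the genes checked, given as log2 differences, 5ar1 minus 5ar3. Signalling genes and their targets were Nodal at 2.12, Skil at 0.66, Dusp6 at 1.20 and Junb at 1.53. Neural genes were Sox1 at -4.27, Penk at -3.27, Slc17a6 at 1.54, Sorcs1 at -1.47 and Lrrc4b at -1.21. Epithelial and matrix genes were Sfn at 4.35, Cldn7 at 2.75, Krt8 at 1.65, Lama3 at 1.72 and Lama1 at -1.62. Hairpin genes were Mir302a at -1.81, Mir302b at -1.63 and Mir367 at -1.71. Pluripotency, germ cell and imprinted genes were Pou5f1 at 1.12, Platr10 at 2.35, Tfap2c at -1.56 and Cdkn1c at -1.18. Other genes were H2-Q6 at 1.83, Sdr39u1 at 1.08 and Myof at -1.70.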

How the results depend on the processing

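Depth (22069338 to 33290250 counts per library) and the 3 EpiSC_AFX libraries of 1 line limit these results: genes near 3 counts per library have no usable fold, and calls depend most on single AFX6 libraries. The reported fit gave 863 calls (500 higher, 363 lower). DESeq2's Wald test gave 1535 (943 and 592), and edgeR's test for changes beyond 1 on the log2 scale gave 144 (94 and 50). A fit of the 9 libraries alone gave 512 (324 and 188). A fit with a separate mean for each FS line gave 1342 (702 and 640). Both lines have 3 libraries, and that fit takes the difference between the lines out of the spread. With 5ar3 alone 1605 were called (964 and 641), and scaling by total counts gave 186 lower calls of 674. Leaving out 1 library gave 355 to 1147 calls, 174 to 709 of them higher and 181 to 438 lower. For autosomal genes between FS lines, 692 calls became 1242 with DESeq2 and 277 to 1523 without 1 library. The cause was not tested. DESeq2 size factors (854), no filter (734), a mean of at least 1 CPM (716), autosomal genes only (873), passage as a covariate (964), 5ar1 alone (710) and, added after seeing the data, no mitochondrial genes (869) stayed within 1.5 times. Of 113 called single genes checked, 110 had 1 sign under all 22 settings and 44 were called under each setting that gave a p. Leaving out 1 library moved Lhx1 between -4.13 and 0.73, Sox17 between -4.79 and 1.37 and Hnf4a between -6.06 and 2.29, the positive value each time without AFX6 p12. The AFX6 libraries then left held at most 3 counts of Sox17 and none of Hnf4a. For Sox17 and Hnf4a the positive values therefore show no change of direction. For Lhx1 the sign did turn without AFX6 p12, and the gene was not called there. Of the uncalled genes, Pou5f1 turned to 0.023 with total counts and 0.35 with 5ar1 alone and ranged from -0.35 to 0.035 (positive without 5ar3 p4), and Fgf5 turned to 0.096 and 0.20 and ranged from -0.27 to 0.091 (positive without 5ar1 p10, 5ar3 p4, 5ar3 p5 or AFX6 p12). No paired analysis was possible because the libraries carry passages of different lines and no replicate number that links FS to EpiSC_AFX.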
